A study of Mus musculus with 12 samples.

Results

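Pre-BMPs were compared with DN-GMPs, the populations at either end of the c-Kit positive progenitor gates in a study that follows E-cadherin (gene Cdh1) on the way to basophils and mast cells in mouse bone marrow. The comparison took the 3 RNA-seq libraries labelled Pre-BMPs and the 3 labelled DN-GMPs, which are 6 of the 12 libraries of the series, and all 14560 genes of the deposited table. Both populations came from the bone marrow of C57BL/6 mice by sorting in 2 rounds. Both gates asked for cells without B220, CD3, Ter119, CD11b, Gr1 and Sca1 that carried c-Kit, CD34 and CD16/32, the surface profile of granulocyte-monocyte progenitors (GMPs). DN-GMPs lacked E-cadherin and FceRIa, the IgE-binding chain of the high-affinity IgE receptor. Pre-BMPs carried FceRIa, and their label gives E-cadherin as absent. The other 6 libraries hold Pro-BMPs, c-Kit positive cells with E-cadherin but without FceRIa, and basophils, which lack c-Kit and carry FceRIa and CD49b. They entered the fit for its estimate of spread and are quoted for a few genes. The series names 3 mice and independent triplicates, but no label ties a library number to a mouse, so the p-values rest on the spread from library to library, which may be technical in part.

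GMPs are known to give rise to neutrophils and monocytes and, along rarer branches, to basophils, mast cells and eosinophils. The factors GATA1 and GATA2 act in the basophil, mast cell and eosinophil branches, as they do in megakaryocytes and red cells. IRF8 and PU.1 act in monocytes, though not only there, and GFI1 acts in neutrophils. The IgE receptor consists of an alpha chain (Fcer1a), a beta chain (Ms4a2) and gamma chains (Fcer1g), and its crosslinking makes basophils and mast cells release histamine and proteases from granules and make lipid mediators.

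Levels are given in CPM, counts of reads per 1000000 of the deposited scaled library size. Differences are on the log2 scale, Pre-BMPs minus DN-GMPs, with standard errors (SE) from limma, and a gene is called where its p, adjusted over all genes by Benjamini-Hochberg, is under 0.05. Reads on genes totalled 29762981 to 36939443 in DN-GMP libraries and 35602065 to 37458352 in Pre-BMP libraries. Where a library had 0 reads of a gene, the counting error alone leaves room for as many as 3, which is 0.0574 to 0.0745 CPM. Where every library of a population had 0 reads, the fold is given as a bound against 3 reads per library. Where only some libraries of a population had 0 reads, the fitted difference is given. Its size then depends on the fraction of a read added before the log, and the CPM of each library is the safer guide. Such genes below include Csf1r, Il1rl1, Il6st, Lat, S1pr1, Prss34 and Ly86. The share of reads outside annotated features was 6.65% to 7.77% in DN-GMPs and 9.15% to 10.2% in Pre-BMPs, and its part in the results was not tested. In such bulk samples, a change in the share of cells that express a gene and a change in RNA per cell cannot be told apart.

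Of the 14560 genes, 3185 (21.9%) were called. Pre-BMPs had 1774 genes at higher levels (12.2% of all genes) and 1411 at lower levels (9.69%). Counts of members called in the gene lists below are to be read beside these shares. Changes of at least 1 on the log2 scale were called for 1897 genes (13%), of which 1262 were higher and 635 lower. Among the genes called higher, 172 had 0 reads in every DN-GMP library, and among those called lower, 56 had 0 reads in every Pre-BMP library. All 3 Pre-BMP libraries lay above all 3 DN-GMP libraries for 2909 genes (20%), and the reverse held for 2790 genes (19.2%). The median difference over all genes was 0.05 on the log2 scale.

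**Figure D1:**
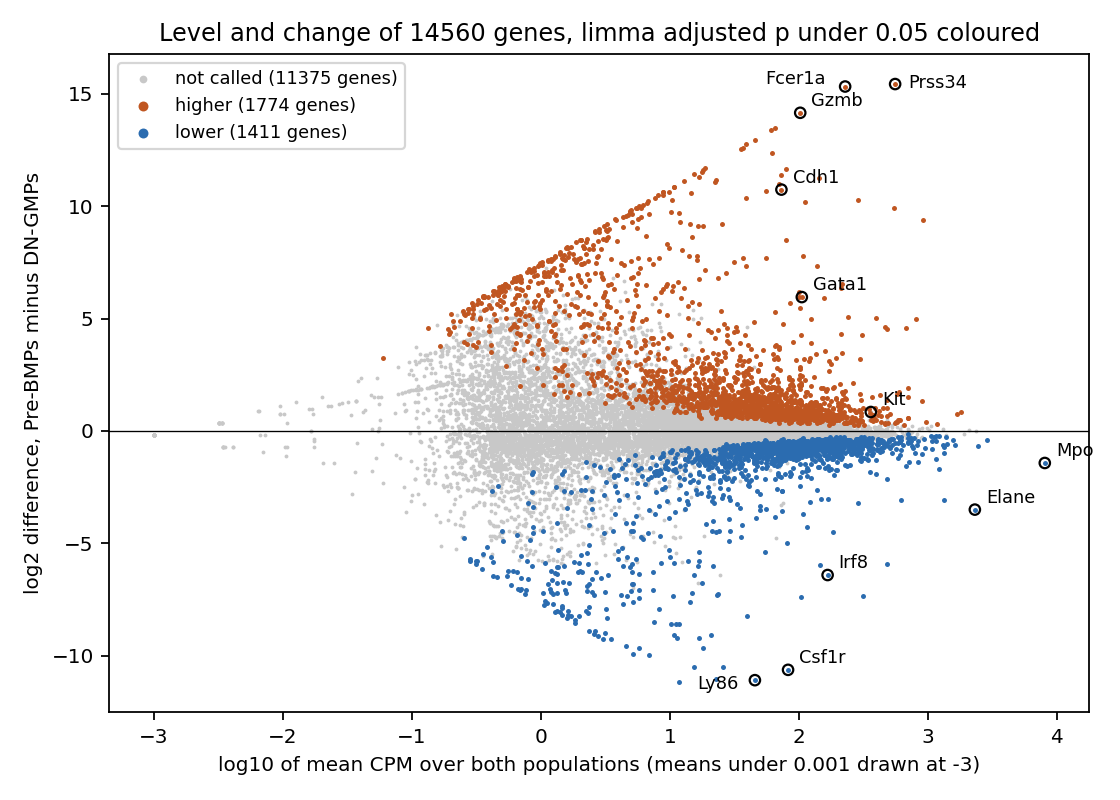
Log2 difference between Pre-BMPs and DN-GMPs (vertical axis) against the log10 of the mean CPM over both populations (horizontal axis) for 14560 genes, with 1774 called higher in orange and 1411 called lower in blue. The straight upper and lower edges are genes with 0 reads in 1 population, whose fitted difference depends on the 0.5 read added. Prss34, Fcer1a and Gzmb lie at the top, Csf1r and Ly86 at the bottom, and Mpo and Elane far to the right.

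The gates and the 4 genes proposed as markers of the comparison were examined first. Fcer1a (ENSMUSG00000005339, GRCm38 chromosome 1, 173221284 to 173227214) had 0 reads in all DN-GMP libraries and 477, 421 and 475 CPM in Pre-BMPs, at least 6869-fold higher, as the gate asks of its protein. Gzmb (chromosome 14, 56258838 to 56262260), which encodes the cytotoxic protease granzyme B, also had 0 reads in DN-GMPs and 223, 229 and 164 CPM in Pre-BMPs, at least 3081-fold higher. Its libraries stood at 15.1, 13.2 and 11.6 CPM in Pro-BMPs and 17.8, 19.3 and 22.8 CPM in basophils, so Pre-BMPs had the highest Gzmb levels of the 4 populations. Gata1 (chromosome X, 7959260 to 7978071) stood at 0.467, 8.48 and 8.82 CPM in DN-GMPs and 212, 213 and 191 CPM in Pre-BMPs. DN-GMP replicate 1 was the lowest by far, and no library of one population reached the other. Its rise was 5.96 (SE 0.851, limma adjusted p = 0.000548). Irf8 (chromosome 8, 120736358 to 120756694), a factor of monocytes and dendritic cells, went the other way, with 357, 345 and 289.9 CPM in DN-GMPs and 3.29, 2.84 and 6.13 CPM in Pre-BMPs. It fell by 6.41 (SE 1.41, limma adjusted p = 0.00762) on the log2 scale, and the lowest DN-GMP library stood far above the highest Pre-BMP library. This SE rests on the spread within all 4 populations, Pro-BMPs and basophils included. With DN-GMPs and Pre-BMPs fitted alone, the limma adjusted p of Irf8 was 6.455e-05, and Irf8 was called in every setting.

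Cdh1 (chromosome 8, 106603351 to 106670246) was near 0 in DN-GMPs, at 0.0212, 0.103 and 0.149 CPM, and stood at 157, 105 and 178 CPM in Pre-BMPs. The difference was 10.74 (SE 0.492, limma adjusted p = 9.73e-08), although the label of Pre-BMPs gives E-cadherin as absent. In Pro-BMPs, whose gate asks for E-cadherin, Cdh1 stood at 56, 33.6 and 38.8 CPM, below every Pre-BMP library. Kit, the stem cell factor receptor, and Cd34 mark both gates and were present in all 6 libraries. Kit stood at 216, 335 and 231 CPM in DN-GMPs and 381, 489 and 519.8 CPM in Pre-BMPs, but its difference of 0.84 was not called (SE 0.325, limma adjusted p = 0.0903, 95% interval 0.13 to 1.56). It was called with the 2 populations fitted alone, with quantile normalization and with voom weights. Cd34 had the opposite sign, at -0.75 (SE 0.287, limma adjusted p = 0.0896), with 413 to 506 CPM in DN-GMPs and 244 to 312 CPM in Pre-BMPs, and was called in the first and last of these settings. Ptprc, the pan-leukocyte gene for CD45, rose by 0.76 (SE 0.137, limma adjusted p = 0.00231). Itgam (CD11b) and Ly6g, whose proteins the gates exclude, stayed at or below 7.27 CPM in every library. In all, 5 of the 11 measured sort marker genes were called higher and 0 lower (1 with the 2 populations alone, quantile normalization or voom weights). The rises of Fcgr3 and Fcgr2b, which encode CD16 and CD32, were small at 0.27 and 0.34. A replicate block ended both calls (limma adjusted p = 0.0692 and 0.062), as did the 2 populations alone, no variance trend, voom weights or leaving out DN-GMP replicate 1 or 3 or Pre-BMP replicate 1 or 3, and the call of Fcgr2b also ended without Pre-BMP replicate 2.

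The promoters of 4 genes of the IgE receptor and granule proteases, all called higher, are shown here with their matches to the GATA motif. They were chosen after their levels and windows were seen, and whether GATA1 or GATA2 acts on them was not tested. Ms4a2, the beta chain of the receptor, stood at 2.17, 0.741 and 0.844 CPM in DN-GMPs and 1042, 1070.1 and 1147 CPM in Pre-BMPs. Prss34, a basophil serine protease, stood at 0, 0.103 and 0 CPM in DN-GMPs and 1289, 829 and 1235 CPM in Pre-BMPs. Cpa3, the carboxypeptidase of mast cell and basophil granules, stood at 56.9, 34.1 and 60.1 CPM in DN-GMPs and 1652, 1485 and 1569 CPM in Pre-BMPs. All 3 had Pre-BMP libraries far above the DN-GMP libraries. Each line gives the 250 bases before the RefSeq gene start on GRCm38.p6, 5′ to 3′ on the strand of the gene, with matches to the GATA motif AGATAA or TGATAA on either strand in capitals (TTATCT is AGATAA on the opposite strand).
Fcer1a, chr1:173227230-173227479, minus strand: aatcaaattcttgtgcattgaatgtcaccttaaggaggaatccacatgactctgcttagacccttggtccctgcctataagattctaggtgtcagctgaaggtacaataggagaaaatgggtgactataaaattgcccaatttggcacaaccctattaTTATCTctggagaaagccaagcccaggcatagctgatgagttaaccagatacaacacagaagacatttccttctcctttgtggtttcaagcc
Ms4a2, chr19:11623720-11623969, minus strand: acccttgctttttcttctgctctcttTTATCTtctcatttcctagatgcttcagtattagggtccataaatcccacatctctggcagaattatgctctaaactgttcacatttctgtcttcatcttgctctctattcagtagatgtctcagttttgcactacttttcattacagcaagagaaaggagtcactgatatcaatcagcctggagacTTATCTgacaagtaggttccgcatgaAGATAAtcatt
Prss34, chr17:25298144-25298393, plus strand: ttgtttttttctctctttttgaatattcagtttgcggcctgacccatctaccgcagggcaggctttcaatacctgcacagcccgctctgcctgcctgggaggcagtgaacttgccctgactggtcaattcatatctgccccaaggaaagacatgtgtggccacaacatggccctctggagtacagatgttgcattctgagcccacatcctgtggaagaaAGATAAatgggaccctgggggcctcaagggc
Cpa3, chr3:20242182-20242431, minus strand: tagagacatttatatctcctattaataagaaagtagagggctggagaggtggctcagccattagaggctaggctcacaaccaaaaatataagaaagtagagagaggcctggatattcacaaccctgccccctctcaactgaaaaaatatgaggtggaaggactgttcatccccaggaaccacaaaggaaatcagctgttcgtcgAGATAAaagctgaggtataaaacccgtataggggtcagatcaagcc
The single matches in Fcer1a, Prss34 and Cpa3 begin 92, 31 and 46 bases before the start, and the 3 matches in Ms4a2 begin 224, 37 and 11 bases before it. The windows of Klf1, Slc18a2 and both Il1rl1 starts also held a match, and those of Gzmb, Gata1, Gata2, Mcpt8, Cma1, Hdc, Alox5, Epx, Cyp11a1 and Itga2b held none of these letters.

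Over all genes, 9782 of the measured symbols had a promoter in the table, some with more than 1. The GATA letters were in 9.84% of the 250-base windows of measured genes, in 12.3% of those of genes called higher and 14.5% of those called higher by at least 1 on the log2 scale. They were in 9.71% of windows of genes called lower and in 16.6% of all 32851 windows of the table. The C/EBP letters TTGCGCAA or TTGCATCA were in 0.813% of windows of measured genes, 0.409% of those called higher and 1.58% of those called lower, which are 7 and 21 windows. For the PU.1 letters GAGGAAGT the shares were 2.66% of measured, 3.51% of higher and 3.76% of lower genes, and for the STAT letters TTCNNNGAA 5.92%, 5.55% and 6.55%. For the RUNX letters TGTGGTT they were 3.27%, 3.33% and 3.76%. For genes called higher and lower by at least 1 on the log2 scale, C/EBP shares were 0.348% and 2.06%. PU.1 shares were then 3.83% and 4.8%, RUNX shares 3.3% and 4.63% and STAT shares 5.91% and 6.52%. The GATA share of the lower genes was then 9.26%. Both strands were searched, and matches are letters in a window, not binding sites. These shares were not tested.

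The 15 largest rises by the rule for named genes included Prss34, Fcer1a, Gzmb, Cyp11a1, St8sia6, Ear1, Ear2, Ear6, Kel, Klf1, Inpp4b, Il1rl1, Rab19 and Rec8, and 12 of the 15 had 0 reads in all DN-GMP libraries. Cyp11a1, the enzyme that starts steroid synthesis from cholesterol, stood at 143, 94.3 and 153 CPM in Pre-BMPs, at least 1956-fold higher. St8sia6, a sialyltransferase, stood at 107, 105 and 151 CPM, at least 1816-fold higher. Klf1, the erythroid Krüppel-like factor, and Kel, the Kell blood group protease, are best known from red cell precursors. Klf1 stood at 0, 0.0823 and 0 CPM in DN-GMPs and 101, 124 and 147 CPM in Pre-BMPs, and Kel at 41, 87.8 and 83.9 CPM in Pre-BMPs, at least 1064-fold higher. Inpp4b, a phosphatase of inositol lipids, was at least 564-fold higher. Prss34 itself rose by 15.44 (SE 0.722, limma adjusted p = 1.15e-07), but with voom weights its adjusted p was 0.0946.

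Of the 15 largest falls, 4 (Csf1r, Ly86, Mpeg1 and Ctss) are in the list of monocyte and dendritic cell genes. Ly86, which encodes the MD-1 protein of the RP105 complex, stood at 99.3, 80.5 and 93.8 CPM in DN-GMPs and 0, 0 and 0.727 CPM in Pre-BMPs. It fell by 11.09 (SE 1.45, limma adjusted p = 0.000304) on the log2 scale. S1pr3, a sphingosine phosphate receptor, stood at 52.8, 45.2 and 38.4 CPM in DN-GMPs and 0, 0 and 0.0957 CPM in Pre-BMPs. Nrg2, a neuregulin, and Clec5a, a myeloid lectin receptor, had DN-GMP libraries at 29.5, 42.7 and 20.7 CPM and 62.2, 49.4 and 43.7 CPM, while no Pre-BMP library passed 0.0767 and 0.422 CPM. Tmem119 had 0 reads in all Pre-BMP libraries against 21.2, 18.4 and 30.8 CPM in DN-GMPs, at least 399.9-fold lower. Also among them were Csf1r, Thbs1, Pik3r6, Abca9, Mefv, F10, Il6st, Mpeg1, Cds1 and Ctss. The call of Thbs1 was lost with voom weights (adjusted p = 0.19), and that of Ctss without any 1 library other than Pre-BMP replicate 2.

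Genes of IgE receptor signalling were described as a list of 26 measured members. Of these, 11 were called higher and 1 lower, with a median difference of 0.76 on the log2 scale. The receptor chains rose unequally: Ms4a2 rose by 9.92 (SE 0.305, limma adjusted p = 6.01e-09), while Fcer1g, whose product also serves the IgG receptors of other myeloid cells, was present in both populations at 139, 117 and 111 CPM in DN-GMPs and 232, 203 and 200.3 CPM in Pre-BMPs and rose by 0.79 (SE 0.146, limma adjusted p = 0.00275). Of the adaptors downstream, Lat, Lat2 and Lcp2 were called higher in every setting and Grap2, at 2.68 (limma adjusted p = 0.36), in none. Gab2 was called higher (limma adjusted p = 0.0337), but not in 5 of the 15 alternative settings. Lat, the adaptor that gathers the signalling complex, stood at 0, 0.885 and 1.56 CPM in DN-GMPs and 41.6, 26.5 and 41.6 CPM in Pre-BMPs, a rise of 7.18 (SE 1.39, limma adjusted p = 0.00368). Its relative Lat2 rose by 2.25 (SE 0.214, limma adjusted p = 2.74e-05) and Lcp2 (SLP-76) by 0.73 (SE 0.147, limma adjusted p = 0.00478). The kinase Fyn stood at 11.3, 16.1 and 13 CPM in DN-GMPs and 80, 82.2 and 89.2 CPM in Pre-BMPs and rose by 2.65 (SE 0.176, limma adjusted p = 1.45e-06). The kinases Lyn and Syk were not called: Lyn differed by 0.23 (limma adjusted p = 0.436, 95% interval -0.19 to 0.64) and Syk by 0.04 (limma adjusted p = 0.901, 95% interval -0.33 to 0.40). Plcg1 rose by 1.74 (SE 0.399, limma adjusted p = 0.00959) and Itpr2, an intracellular calcium channel, by 2.0 (SE 0.434, limma adjusted p = 0.00724). Plcg2 was the 1 member called lower, at -0.54 (limma adjusted p = 0.035), and this call was lost with the 2 populations alone, no variance trend or scaling by gene read totals, and without DN-GMP replicate 1 or 2 or Pre-BMP replicate 1 or 2.

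Of 17 measured genes for histamine and lipid mediators, 8 were called higher and 2 lower, with a median of 1.31. The median was 0.65 without DN-GMP replicate 1, 0.75 without Pre-BMP replicate 2, 0.76 without Pre-BMP replicate 3, 0.64 with quantile normalization and 0.87 with 5 reads added. Hdc, the enzyme that makes histamine, was already present in DN-GMPs at 216, 329 and 297 CPM and stood at 959.6, 817 and 845 CPM in Pre-BMPs, a rise of 1.66 (SE 0.133, limma adjusted p = 7.34e-06). Slc18a2, the transporter that loads histamine into granules, went from 6.66, 3.58 and 5.31 CPM to 409.6, 354 and 490.0 CPM, a rise of 6.36 (SE 0.228, limma adjusted p = 1.27e-08). Slc22a3, a transporter of organic cations including histamine, rose by 5.92 (SE 0.806, limma adjusted p = 0.000402). The leukotriene enzymes split in direction. Alox5, the 5-lipoxygenase, stood at 15.1, 4.63 and 1.32 CPM in DN-GMPs and 446, 389.6 and 442 CPM in Pre-BMPs and rose by 6.55 (SE 0.631, limma adjusted p = 3.06e-05), whereas Lta4h, which makes leukotriene B4, stood at 953, 1029 and 1077 CPM in DN-GMPs and 352, 353 and 321 CPM in Pre-BMPs and fell by 1.58 (SE 0.0773, limma adjusted p = 1.75e-07). Hpgds, which makes prostaglandin D2, had 0 reads in DN-GMPs and 1.79, 6.98 and 1.07 CPM in Pre-BMPs, at least 49.2-fold higher. The count of rises in this list was 5 without Pre-BMP replicate 1 and 5 without Pre-BMP replicate 3.

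Basophil genes were higher in 15 of 24 measured members and lower in 1, with a median of 4.38 (4.29 with genes at 0 set to their bound, 2.92 with 5 reads added). Mcpt8, the basophil protease also called mMCP-8, stood at 39.6, 27.1 and 25.7 CPM in DN-GMPs and 596, 536 and 642 CPM in Pre-BMPs and rose by 4.29 (SE 0.151, limma adjusted p = 1.2e-08). Ifitm1 rose by 4.53 (SE 0.153, limma adjusted p = 1.01e-08) and Lmo4, a LIM-domain factor, by 4.62 (SE 0.16, limma adjusted p = 1.04e-08). The cytokine genes Il4 and Il6 had 0 reads in every DN-GMP library and stood at 9.78, 13.1 and 11.6 CPM and 20.4, 13.6 and 30.9 CPM in Pre-BMPs, at least 173-fold and 324-fold higher. Csf1, the macrophage growth factor, stood at 5.94, 7.47 and 3.3 CPM in DN-GMPs and 139.8, 118 and 179.8 CPM in Pre-BMPs, a rise of 4.77 (SE 0.342, limma adjusted p = 2.83e-06). Hgf, the hepatocyte growth factor, rose by 2.91 (SE 0.288, limma adjusted p = 3.57e-05), and Cd200r3, an activating receptor of basophils and mast cells, had 0 reads in DN-GMPs and 14.5, 10.4 and 16.1 CPM in Pre-BMPs. The exception was Cd69, an activation antigen, which fell by 2.1 (SE 0.401, limma adjusted p = 0.00342). The chemokine gene Ccl9 was not called and stood at 262, 229 and 233 CPM in DN-GMPs and 219, 154 and 207 CPM in Pre-BMPs.

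Mast cell genes were called higher in 9 of 14 measured members and lower in 1, with a median of 4.56. The list held 24 genes, and these counts cover only the measured part. Not measured were the proteases Mcpt1, Mcpt2, Mcpt4, Mcpt9 and Tpsab1, and Tph1, Rgs13, Mrgprb1, Mrgprb2 and Smpx. The 1 member called lower, Slc7a5, an amino acid transporter, stood at 91.5 to 118 CPM in DN-GMPs and 55.7 to 74.5 CPM in Pre-BMPs, and its call was lost with no variance trend and without DN-GMP replicate 1 or 2 or Pre-BMP replicate 3. Cma1, the chymase mMCP-5, stood at 0.0425, 0.0412 and 0.0745 CPM in DN-GMPs and 127, 227 and 68.1 CPM in Pre-BMPs, a rise of 10.98 (SE 1.15, limma adjusted p = 5.74e-05). Tpsb2, the tryptase mMCP-6, had 0 reads in DN-GMPs and 24.7, 61.4 and 14.6 CPM in Pre-BMPs, at least 504-fold higher. Pre-BMP replicate 2 held the highest level of both genes, and of Tpsg1 and Hpgds as well. Cpa3 rose by 5.0 (SE 0.171, limma adjusted p = 1.04e-08) and the granule membrane gene Cd63 by 1.5 (SE 0.0835, limma adjusted p = 5.01e-07). Mitf, the factor known for its part in mast cells, differed by -0.05 and was not called (limma adjusted p = 0.982), with 5.9, 1.67 and 7.3 CPM in DN-GMPs and 5.08, 4.35 and 2.91 CPM in Pre-BMPs and a 95% interval of -2.88 to 2.77. Among 15 genes for granzymes, the granule matrix and heparin, 6 were called higher and 0 lower. Srgn, the serglycin core to which heparin chains attach, was high in both populations and rose by 0.42 (SE 0.0539, limma adjusted p = 0.000267), Ndst2, a heparin sulfotransferase, by 2.03 (SE 0.303, limma adjusted p = 0.000713), and Xylt1, which starts the chains, by 1.44 (SE 0.316, limma adjusted p = 0.00768). Hs3st1, another sulfotransferase, had 0 reads in DN-GMPs and 5.1, 3.11 and 8.63 CPM in Pre-BMPs.

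Genes best known from eosinophils rose as well, in 10 of 14 measured members, with 0 lower (2 with voom weights, 1 with the 2 populations alone or 5 reads added) and a median of 8.76 (7.57 with genes at 0 set to their bound). Prg2, the major basic protein, stood at 1.32, 1.59 and 8.77 CPM in DN-GMPs and 1456, 1819 and 2206 CPM in Pre-BMPs and rose by 9.41 (SE 0.581, limma adjusted p = 8.53e-07). Epx, the eosinophil peroxidase, stood at 0.127, 0.144 and 3.9 CPM in DN-GMPs and 348, 537 and 837 CPM in Pre-BMPs. Its rise was 10.27 (SE 1.01, limma adjusted p = 3.57e-05), but the adjusted p was 0.0524 with voom weights. DN-GMP replicate 3 had the highest Prg2 and Epx levels of its group, still far below every Pre-BMP library. The ribonuclease genes Ear1, Ear2 and Ear6 had 0 reads in DN-GMPs and 60.9, 75.9 and 98.7 CPM, 60.3, 99.5 and 117 CPM and 39.1, 76 and 107 CPM in Pre-BMPs, and reads of such near-identical copies may be split between them. Il5ra, the interleukin 5 receptor chain, had 0 reads in DN-GMPs and 5.82, 7.09 and 13.1 CPM in Pre-BMPs, at least 130.1-fold higher. Siglecf rose by 2.49 (SE 0.252, limma adjusted p = 4.4e-05). Summed over the list, DN-GMP libraries held 887 to 1022 CPM and Pre-BMP libraries 3270.1 to 4819 CPM. Prg2, Epx, Ear1, Ear2, Ear6 and Il5ra made up only a small part of the DN-GMP sum. Of the members not called, Aldh2, Xbp1 and Cd24a had the highest mean levels over both populations. Whether eosinophil precursors within the gate contribute to the levels of this list was not tested.

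**Figure D2:**
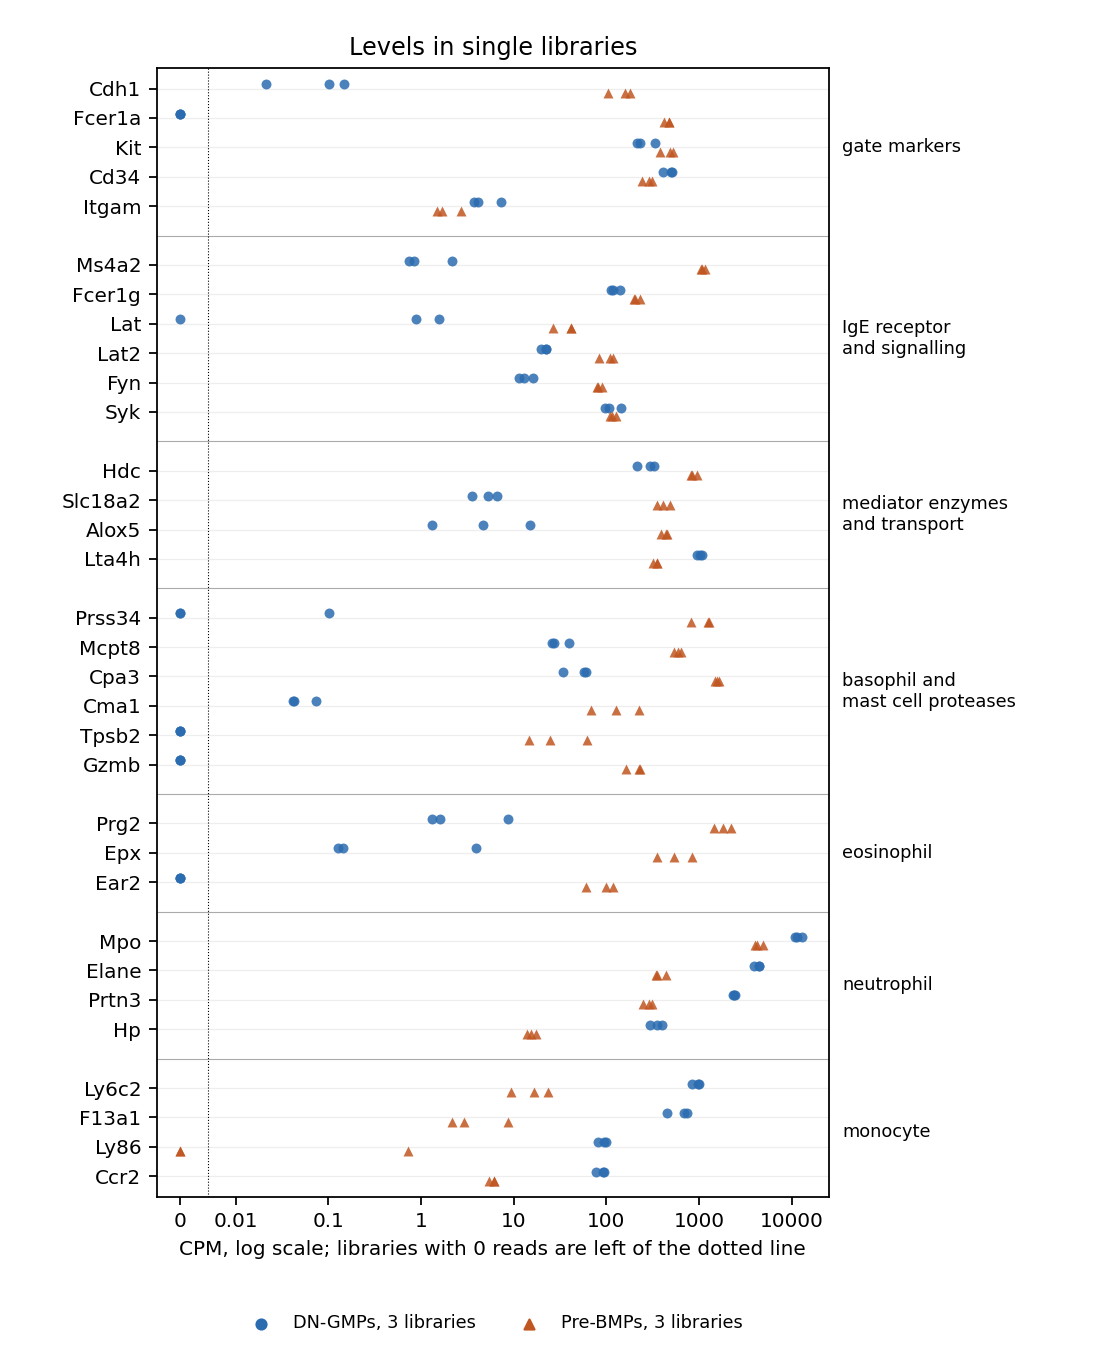
CPM on a log scale (horizontal axis) of single genes (vertical axis) in the 3 DN-GMP libraries (blue circles) and the 3 Pre-BMP libraries (orange triangles), with 0 reads left of the dotted line. Fcer1a, Tpsb2, Gzmb and Ear2 are at 0 in all DN-GMP libraries, and the neutrophil and monocyte genes drawn are higher in DN-GMPs. Syk lies close together in both populations. Kit was not called, although its Pre-BMP libraries all lie above its DN-GMP libraries.

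Genes of neutrophil primary granules had the opposite sign. Of 21 measured genes of these granules and neutrophil progenitors, 16 were called lower and 0 higher, all 21 differences were negative (18 with quantile normalization), and the median was -1.72. Mpo, the myeloperoxidase, fell from 11479, 13035 and 10816 CPM to 4904, 4201 and 4052 CPM, by 1.43 (SE 0.126, limma adjusted p = 1.59e-05) on the log2 scale. With quantile normalization, which gives the top gene of every library the same value, Mpo was not called. Elane, the neutrophil elastase, stood at 4403, 4425 and 3950.4 CPM in DN-GMPs and 346, 439 and 349.5 CPM in Pre-BMPs, a fall of 3.5 (SE 0.251, limma adjusted p = 2.78e-06), and Prtn3, proteinase 3, fell by 3.08 (SE 0.216, limma adjusted p = 2.34e-06). Hp, haptoglobin, fell by 4.49 (SE 0.145, limma adjusted p = 7.15e-09) and Gstm1 by 2.15 (SE 0.131, limma adjusted p = 7.98e-07). These falls were unequal: Ctsg, cathepsin G, fell by 1.26 (SE 0.102, limma adjusted p = 7.87e-06) and remained at 742, 638 and 667 CPM in Pre-BMPs. Nkg7 at -0.10 (95% interval -0.31 to 0.11) and Plac8 at -0.16 (95% interval -0.38 to 0.06) were not called. Summed levels of the list were 27165 to 30489 CPM in DN-GMPs and 9880.0 to 11328 CPM in Pre-BMPs.

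Monocyte and dendritic cell genes were called lower in 13 of 21 measured members and higher in 2, with a median of -3.58 (-3.80 with genes at 0 set to their bound). Ly6c2, the Ly6C antigen of monocytes, stood at 999, 984 and 842 CPM in DN-GMPs and 16.7, 23.4 and 9.48 CPM in Pre-BMPs, a fall of 5.92 (SE 0.297, limma adjusted p = 2.1e-07). F13a1, a coagulation factor made by monocytes, stood at 452, 744 and 684 CPM in DN-GMPs and 2.16, 2.91 and 8.6 CPM in Pre-BMPs, a fall of 7.34 (SE 0.447, limma adjusted p = 7.69e-07). Ccr2, the receptor that draws monocytes from the marrow, fell by 3.88 (SE 0.311, limma adjusted p = 7.32e-06). Csf1r, the receptor for CSF1, stood at 179, 199 and 108 CPM in DN-GMPs and at 0 in 2 Pre-BMP libraries, while Pre-BMP replicate 3 had 9.84 CPM. Its fitted fall was 10.63 (SE 2.07, limma adjusted p = 0.00384), a size that depends on the fraction of a read added to the 2 libraries at 0. The 2 genes called higher were Cx3cr1, the fractalkine receptor, at 11, 19.2 and 11.7 CPM in DN-GMPs and 100.4, 130.1 and 145 CPM in Pre-BMPs, and Id2, an inhibitor of helix-loop-helix factors, at 1.83, 3.07 and 1.07 CPM in DN-GMPs and 48.4, 38.6 and 31.7 CPM in Pre-BMPs.

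Of 47 measured blood cell transcription factors, 19 were called higher and 7 lower, with a median of 0.51. Gata2 stood at 19.7, 27.8 and 22.2 CPM in DN-GMPs and 904, 597 and 809.7 CPM in Pre-BMPs and rose by 5.04 (SE 0.263, limma adjusted p = 2.77e-07). Gfi1b, a repressor that acts in red cell and megakaryocyte precursors, rose by 5.28 (SE 0.325, limma adjusted p = 8.41e-07). It stood at 2.55, 2.76 and 4.79 CPM in DN-GMPs and 150.1, 114 and 116 CPM in Pre-BMPs. Its relative Gfi1, a repressor that acts in the neutrophil branch, fell by 3.47 (SE 0.325, limma adjusted p = 2.46e-05). Gfi1 stood at 96.7, 130.0 and 81 CPM in DN-GMPs and 9.43, 7.13 and 11.2 CPM in Pre-BMPs. Zfpm1, the GATA partner FOG1, rose by 1.98 (SE 0.32, limma adjusted p = 0.00119) and Tal1 by 1.51 (SE 0.342, limma adjusted p = 0.00897). Runx1 rose by 1.89 (SE 0.112, limma adjusted p = 6.48e-07), with 64.7, 63.3 and 68 CPM in DN-GMPs and 235, 214 and 284 CPM in Pre-BMPs. Further rises were called for Ets1, 3.81 (SE 0.354, limma adjusted p = 2.3e-05), and Klf6, 2.81 (SE 0.281, limma adjusted p = 3.95e-05). Spi1, which encodes PU.1, fell by 1.12 (SE 0.116, limma adjusted p = 5.02e-05) but remained at 136, 119 and 110.5 CPM in Pre-BMPs. Lmo2, a partner of TAL1, fell by 1.94 (SE 0.14, limma adjusted p = 2.88e-06), Cebpd by 1.44 (SE 0.179, limma adjusted p = 0.000213) and Myc by 0.71 (SE 0.132, limma adjusted p = 0.00279). Cebpa, needed to form GMPs, was not called, at 0.51 (limma adjusted p = 0.129, and 0.0462 without DN-GMP replicate 2), with 28.1, 38.4 and 23.7 CPM in DN-GMPs and 47.9, 37.3 and 41 CPM in Pre-BMPs. Myb, at 0.09 (95% interval -0.16 to 0.33), was not called either.

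Cytokine receptor genes split almost evenly, with 12 called higher and 13 lower of 38 measured and a median of -0.25, which ranged from -0.33 to 0.02 when 1 library was left out. On the side of Pre-BMPs were receptors for interleukin 3, interleukin 5 and interleukin 33. Il3ra, the interleukin 3 receptor chain, stood at 19.2, 15.8 and 12.4 CPM in DN-GMPs and 38.1, 29.8 and 41.3 CPM in Pre-BMPs and rose by 1.21 (SE 0.209, limma adjusted p = 0.00184). Csf2rb, the beta chain shared by the interleukin 3, interleukin 5 and GM-CSF receptors, rose by 1.63 (SE 0.245, limma adjusted p = 0.000752). Csf2rb2, the beta chain of interleukin 3 alone, stood at 0.764, 3.75 and 0.497 CPM in DN-GMPs and 33.3, 45.2 and 66.3 CPM in Pre-BMPs and rose by 5.35 (SE 0.637, limma adjusted p = 0.000153), and reads may be split between these near-identical genes. Il1rl1, the receptor of interleukin 33, had 0 reads in 2 DN-GMP libraries, 1.04 CPM in DN-GMP replicate 3 and 181, 145 and 153 CPM in Pre-BMPs. Its fitted rise was 11.67 (SE 1.34, limma adjusted p = 0.000117), a size that depends on the fraction of a read added to the 2 libraries at 0. Il17ra rose by 1.8 (SE 0.165, limma adjusted p = 2.11e-05), Tgfbr2 by 1.45 (SE 0.158, limma adjusted p = 7.66e-05) and Crlf2, the receptor chain for TSLP, by 0.82 (SE 0.184, limma adjusted p = 0.00881).

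Receptors of the neutrophil and monocyte growth factors were on the side of DN-GMPs. Csf3r, the G-CSF receptor, stood at 183, 249 and 187 CPM in DN-GMPs and 0.346, 7.32 and 0.689 CPM in Pre-BMPs, a fall of 7.39 (SE 0.95, limma adjusted p = 0.000268). Pre-BMP replicate 2 had the highest Csf3r level of its group. Il6ra and Il6st, which together form the interleukin 6 receptor, fell by 6.4 (SE 0.936, limma adjusted p = 0.000626) and by 9.09 (SE 1.69, limma adjusted p = 0.00292). In Pre-BMPs, Il6st stood at 0, 0.0192 and 1.38 CPM. Tnfrsf1a and Ifngr2 fell by 1.82 (SE 0.42, limma adjusted p = 0.00996) and by 1.05 (SE 0.208, limma adjusted p = 0.00436), and Ifngr1, at -0.04 (95% interval -0.28 to 0.21), was not called.

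Of 21 JAK, STAT and SOCS genes, 5 were called higher and 1 lower (0 without DN-GMP replicate 1, with the 2 populations alone or with voom weights), with a median of 0.50 (0.049 without DN-GMP replicate 3). Jak2, the kinase of the beta chain and of the Epo receptor, stood at 32.5, 31.2 and 35 CPM in DN-GMPs and 165, 165 and 209 CPM in Pre-BMPs and rose by 2.44 (SE 0.132, limma adjusted p = 3.86e-07). Jak1 rose by 0.97 (SE 0.0837, limma adjusted p = 1.3e-05), Stat5a by 1.1 (SE 0.175, limma adjusted p = 0.00112) and Stat5b by 1.24 (SE 0.146, limma adjusted p = 0.00014). Stat6, which acts behind the interleukin 4 receptor, was not called, at 0.10 (95% interval -0.37 to 0.57).

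**Figure D3:**
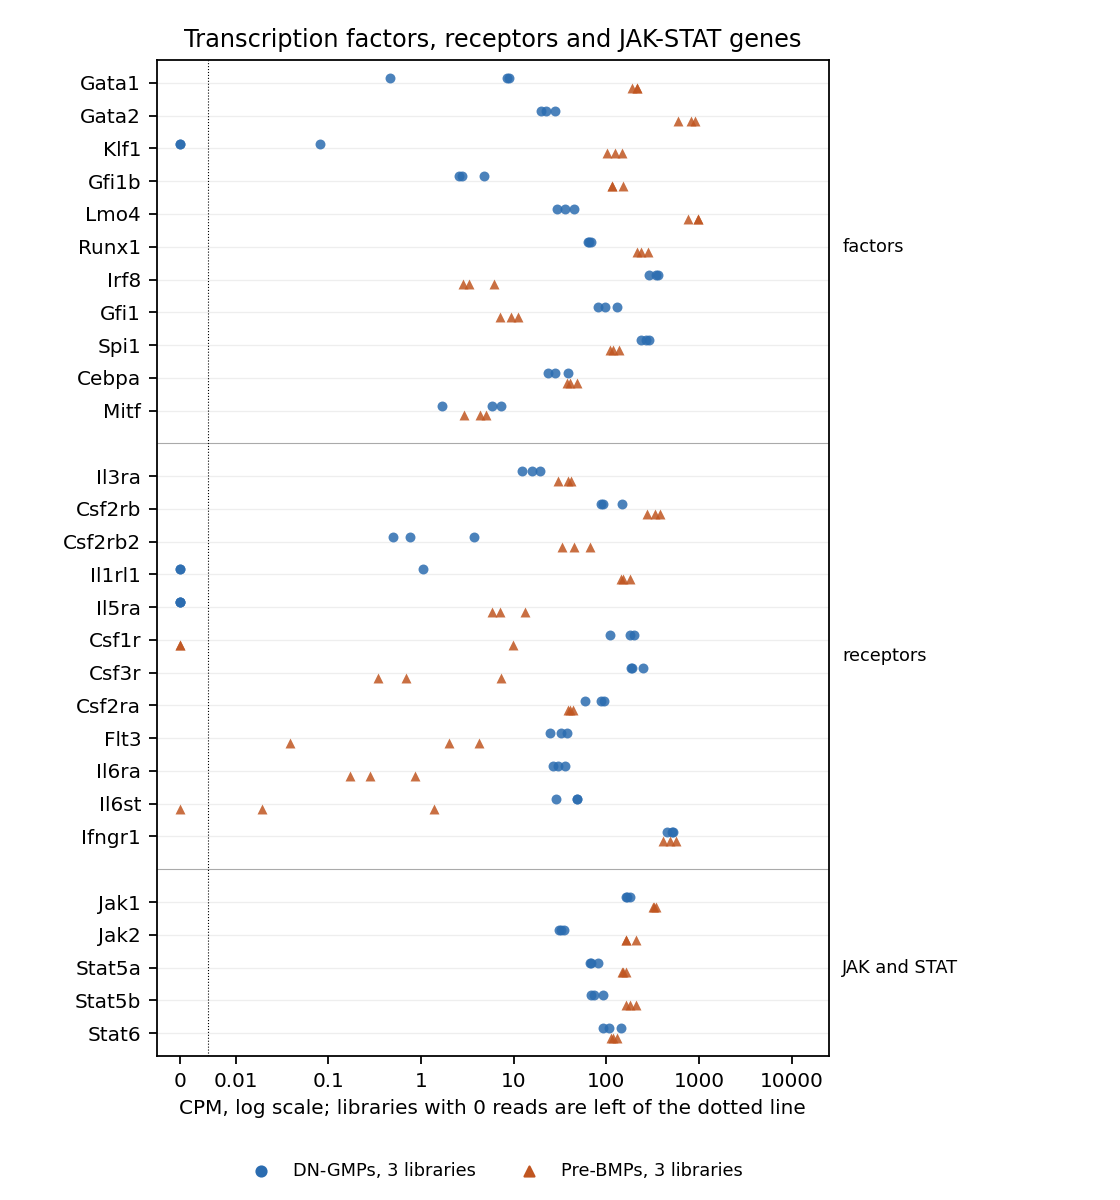
CPM on a log scale (horizontal axis) of transcription factor, receptor, JAK and STAT genes (vertical axis) in the 3 DN-GMP (blue circles) and 3 Pre-BMP libraries (orange triangles), with 0 reads left of the dotted line. Gata1, Gata2, Klf1, Csf2rb2 and Il1rl1 are higher in Pre-BMPs, Irf8, Gfi1, Csf1r and Csf3r are higher in DN-GMPs, and Mitf, Ifngr1 and Stat6 overlap.

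Megakaryocyte and red cell genes were called higher in 16 of 26 measured members and lower in 3 (1 without DN-GMP replicate 2 or Pre-BMP replicate 2), with a median of 2.37. The higher calls numbered 12 to 14 with 1 library left out and 13 with a replicate block. Itga2b, the integrin chain CD41, stood at 19.2, 32.3 and 12.9 CPM in DN-GMPs and 465, 325 and 426 CPM in Pre-BMPs, a rise of 4.32 (SE 0.285, limma adjusted p = 1.43e-06). Nfe2 rose by 1.03 (SE 0.106, limma adjusted p = 4.98e-05) and Car2, a carbonic anhydrase, by 1.99 (SE 0.259, limma adjusted p = 0.000291). Among the others called higher were the factors Gata1, Klf1, Zfpm1, Tal1 and Gfi1b and, at low levels, globin genes: Hba-a1 stood at 0.17, 0.0618 and 0 CPM in DN-GMPs and 7.18, 2.82 and 0.842 CPM in Pre-BMPs. The platelet gene Gp5, at -0.40 (limma adjusted p = 0.732), was not called. Of 24 stem and multipotent progenitor genes, 6 were called higher and 2 lower (4 with voom weights), with a median of 0.49 (0.18 with the filter of 1 CPM in 3 libraries, 0.26 with quantile normalization or without DN-GMP replicate 3, and 0.76 without Pre-BMP replicate 2). The calls were 25% and 8.33% of this list, against 12.2% and 9.69% of all genes. Ikzf2 (Helios) rose by 3.96 (SE 0.253, limma adjusted p = 1.14e-06), Angpt1, the ligand of TIE2, by 3.43 (SE 0.194, limma adjusted p = 5.01e-07), Meis1 by 1.74 (SE 0.288, limma adjusted p = 0.00142) and Sox4 by 1.01 (SE 0.134, limma adjusted p = 0.000344).

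Genes of DNA replication were lower in Pre-BMPs. Of 28 measured S phase genes, 17 were called lower and 1 higher, 27 differences were negative (24 with quantile normalization and 26 with scaling by gene read totals), and the median was -0.59. Rrm2, a subunit of ribonucleotide reductase, stood at 275, 306 and 310.0 CPM in DN-GMPs and 147, 125 and 133 CPM in Pre-BMPs, a fall of 1.14 (SE 0.126, limma adjusted p = 8.63e-05), and Mcm5, a subunit of the replicative helicase, fell by 0.99 (SE 0.139, limma adjusted p = 0.000497). Pcna, the sliding clamp, fell by 0.60 (SE 0.101, limma adjusted p = 0.00154). Rfc2, a subunit of the clamp loader, was the 1 member called higher, by 0.43 (SE 0.0742, limma adjusted p = 0.00177). Without Pre-BMP replicate 3, the list had 10 members called lower. Genes of G2 and mitosis had the opposite sign in all 26 measured members, with a median of 0.61. Of these, 11 were called higher and 0 lower. Cenpa, the centromere histone, stood at 109, 119 and 152 CPM in DN-GMPs and 295, 344 and 367 CPM in Pre-BMPs, a rise of 1.41 (SE 0.171, limma adjusted p = 0.000169), and Top2a rose by 0.68 (SE 0.122, limma adjusted p = 0.00236) and Kif23 by 0.78 (SE 0.147, limma adjusted p = 0.00312). Cdk1, at 0.09 (95% interval -0.24 to 0.41), and Mki67, at 0.25 (95% interval -0.16 to 0.66), were not called. The count of rises was 7 without any 1 of DN-GMP replicate 1, Pre-BMP replicate 2 and Pre-BMP replicate 3.

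Among 12 cyclin D, cyclin E, CDK4/6 and inhibitor genes, 3 were called higher and 3 lower. The D cyclins differed in direction. Ccnd2 stood at 262, 239 and 279 CPM in DN-GMPs and 122, 115 and 95.7 CPM in Pre-BMPs, a fall of 1.23 (SE 0.139, limma adjusted p = 0.000102), and Ccnd3 at 116, 136 and 117 CPM in DN-GMPs and 164, 189 and 177 CPM in Pre-BMPs, a rise of 0.52 (SE 0.0979, limma adjusted p = 0.00301). Of the inhibitors, Cdkn1b (p27) rose by 1.53 (SE 0.213, limma adjusted p = 0.000452) and Cdkn2d (p19) by 1.00 (SE 0.214, limma adjusted p = 0.00672). Cdk6 was not called, at 0.07 (95% interval -0.30 to 0.44).

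Ribosome biogenesis and Myc target genes fell together: 17 of 26 measured members were called lower, 0 higher, all 26 differences were negative, and the median was -0.78. Ncl, nucleolin, stood at 1226, 1029.5 and 1376 CPM in DN-GMPs and 591, 628 and 543 CPM in Pre-BMPs, a fall of 1.04 (SE 0.0925, limma adjusted p = 1.69e-05). Npm1, nucleophosmin, fell by 0.84 (SE 0.112, limma adjusted p = 0.000349), Nolc1 by 1.23 (SE 0.164, limma adjusted p = 0.000365) and Rrp1b by 1.16 (SE 0.183, limma adjusted p = 0.00104). Myc, whose product drives many of these genes, was itself called lower, and a link between its fall and theirs was not tested. Among genes of high level in DN-GMPs, H2afy, which encodes the histone variant macroH2A1, fell from 1882, 1755 and 1997 CPM to 584, 605 and 573 CPM, by 1.68 (SE 0.0698, limma adjusted p = 3.9e-08), while Actb, at 0.01 (95% interval -0.15 to 0.17), and Eef1a1, at 0.05 (95% interval -0.11 to 0.20), were not called.

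**Figure D4:**
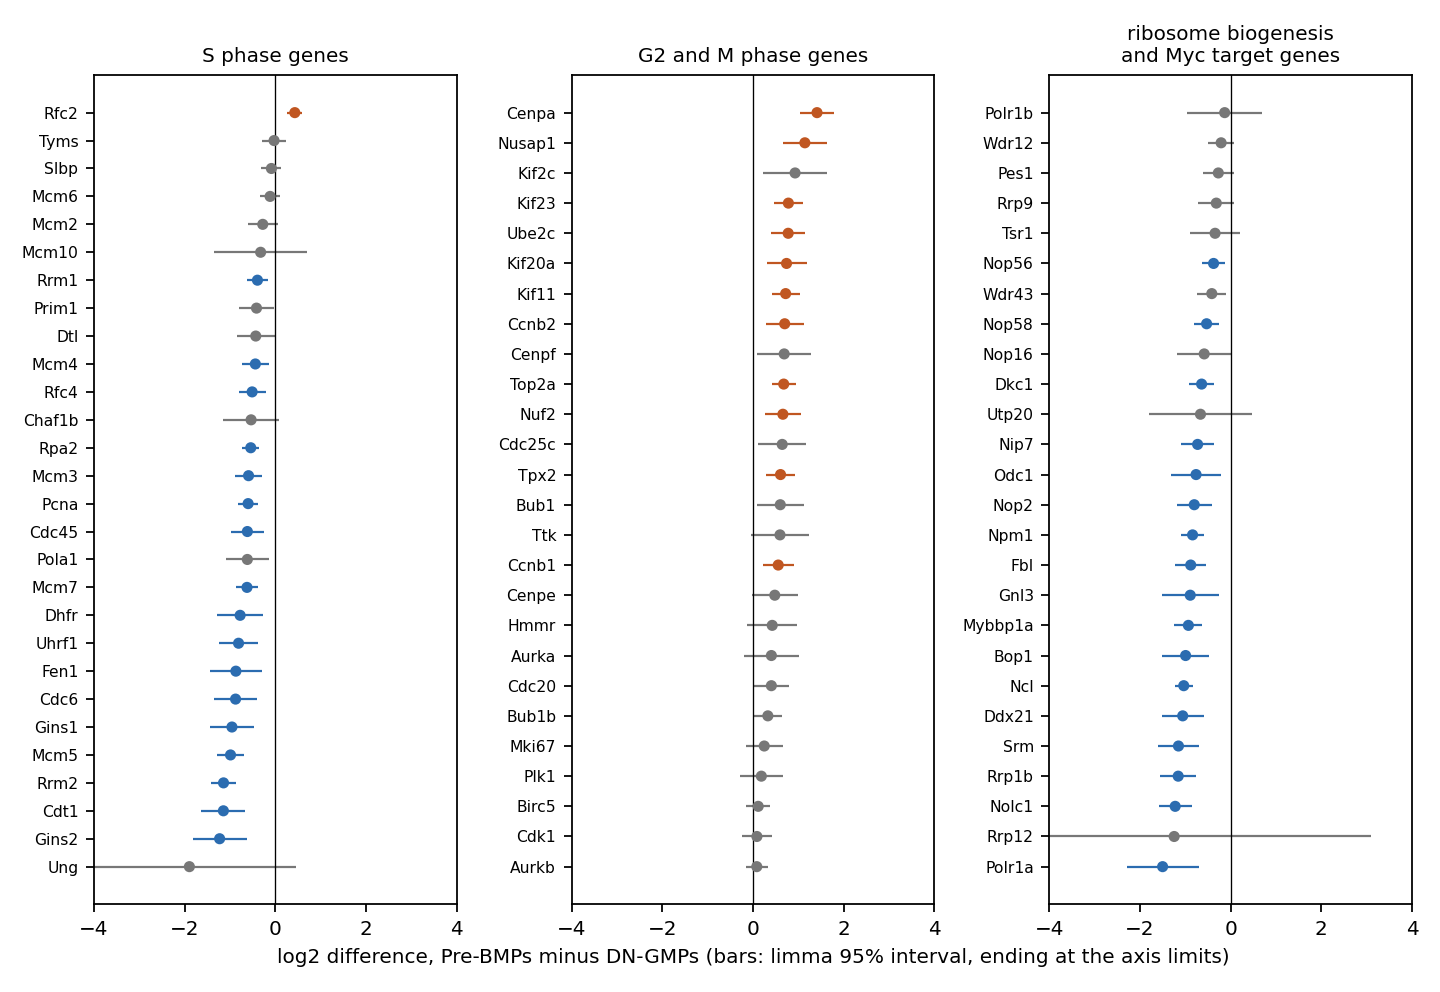
Log2 difference, Pre-BMPs minus DN-GMPs, with its limma 95% interval (horizontal axis) for 28 S phase, 26 G2 and M phase and 26 ribosome biogenesis and Myc target genes (vertical axes), orange where called higher, blue where called lower and grey where not called. All G2 and M phase differences are positive, all ribosome biogenesis differences are negative, and 27 of 28 S phase differences are negative.

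Adhesion genes were called higher in 15 of 28 measured members and lower in 0 (3 with quantile normalization, 2 with a replicate block or without Pre-BMP replicate 3, and 1 in 4 other settings), with a median of 0.79. Itgb7, the integrin beta 7 chain used in homing to gut and skin, stood at 4.99, 3.29 and 5.31 CPM in DN-GMPs and 212, 180.2 and 206 CPM in Pre-BMPs, a rise of 5.48 (SE 0.257, limma adjusted p = 1.15e-07). Its partner Itga4 rose by 1.87 (SE 0.222, limma adjusted p = 0.000149), and Ctnna1, the alpha-catenin that binds E-cadherin complexes to actin, by 1.09 (SE 0.216, limma adjusted p = 0.00418). Ctnnb1, beta-catenin, was not called, at 0.08 (95% interval -0.12 to 0.29). Of 13 chemokine and complement receptors, 7 were called higher and 1, Ccr2, lower. S1pr1, which guides exit from tissue along sphingosine phosphate, stood at 3.31, 1.42 and 0 CPM in DN-GMPs and 34.2, 40.9 and 62.1 CPM in Pre-BMPs, a rise of 6.83 (SE 1.57, limma adjusted p = 0.00978), and S1pr4 rose by 2.29 (SE 0.388, limma adjusted p = 0.00165). Hrh4, a histamine receptor, had 0 reads in DN-GMPs and 2.18, 6.35 and 11 CPM in Pre-BMPs, at least 97.7-fold higher, and Ltb4r1, a leukotriene B4 receptor, rose by 0.69 (SE 0.128, limma adjusted p = 0.00279).

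Markers of cells that the gates should leave out were read for the same 6 libraries. Late neutrophil granule genes were called higher in 5 of 13 measured members (3 with voom weights), among them Camp, at 0.0425, 0.597 and 0 CPM in DN-GMPs and 19.5, 8.74 and 5.32 CPM in Pre-BMPs, and S100a9, at 5.18, 3.38 and 5.51 CPM in DN-GMPs and 75.4, 35.5 and 23.7 CPM in Pre-BMPs. Pre-BMP replicate 1 had the highest level of both. The summed level of that list was 105 to 107 CPM in DN-GMPs and 91.3 to 325 CPM in Pre-BMPs, and the part of such cells in the other results was not tested. Lymphoid genes were called higher in 0 of 9 measured members (1 in 5 settings, among them without DN-GMP replicate 1 or 2) and lower in 2 (1 with the 2 populations alone or without Pre-BMP replicate 2 or 3), and summed to 273 to 295 CPM in DN-GMPs and 61.1 to 79.7 CPM in Pre-BMPs, most of it from the row of the Ighm identifier. Il7r, a defining gene of lymphoid progenitors, had 0 reads in DN-GMPs and at most 0.0203 CPM in Pre-BMPs. In the class II MHC list, 3 of 8 measured genes rose: H2-Oa by 4.42 (SE 0.391, limma adjusted p = 1.59e-05), H2-Ob by 3.16 (SE 0.389, limma adjusted p = 0.000192) and H2-Ab1 by 1.13 (SE 0.229, limma adjusted p = 0.00482), while H2-Aa had 0 reads in all 6 libraries. Interferon response genes were called higher in 1 of 14 measured members (Rtp4), 3 without DN-GMP replicate 2 and 2 with 5 reads added, and immediate early and stress genes higher in 3 (5 with 5 reads added) and lower in 2 (1 without DN-GMP replicate 1, with the 2 populations alone or with voom weights) of 15. Sterol synthesis genes were called higher in 3 of 21 measured members (1 without Pre-BMP replicate 1) and lower in 0 (2 with quantile normalization, 1 with voom weights). Higher calls were thus 14.3% of the sterol list, 7.14% of the interferon list and 20% of the immediate early and stress list, against 12.2% of all genes. Lower calls were 13.3% of the immediate early and stress list, against 9.69% of all genes. Pdgfrb and Pecam1, the 2 measured genes of the stromal and endothelial list, stood at 13.4 to 21 CPM in DN-GMPs and 42.3 to 92.4 CPM in Pre-BMPs, and at 44.5 to 91.4 CPM in DN-GMPs and 118 to 127 CPM in Pre-BMPs, and Pecam1 alone was called higher (both genes with voom weights or the 2 populations alone).

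**Figure D5:**
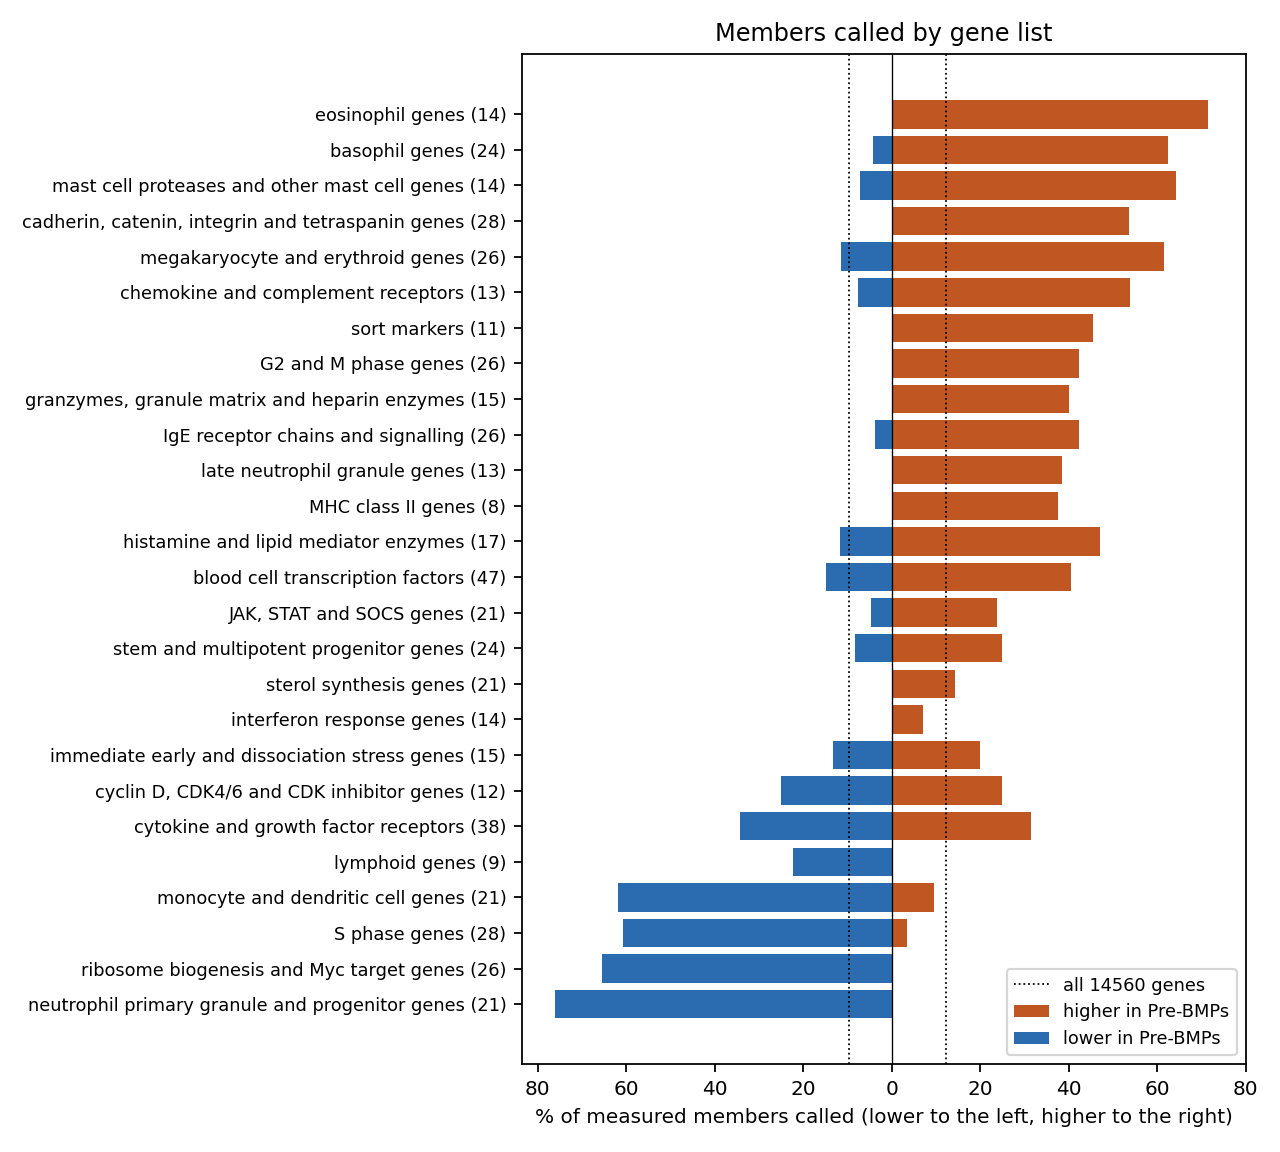
Percent of measured members called higher (orange, to the right) and lower (blue, to the left) in Pre-BMPs for 26 gene lists (vertical axis, with the number of measured members), with dotted lines at 12.2% and 9.69%, the shares over all genes. Eosinophil, basophil and mast cell genes lie at the top, and neutrophil primary granule, ribosome biogenesis and S phase genes at the bottom. Lists share members, so the bars are not independent.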

How the data were processed

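RNA of sorted bone marrow cells was sequenced in 12 libraries. Per the labels' protocols, the kits were SmartSeq v4 and Nextera XT, which keep no strand, so reads of a gene may include those of an antisense neighbour. The values the authors deposited are on the log2 scale. Trimmomatic, STAR, deepTools and HTSeq are named in the submitters' processing notes, with version, genome build and annotation not given in the sources used here. The values are log2 of reads plus 0.5 per 1000000 of a scaled library size: taken back, 100% were within 0.001 of a whole read. The 3 rows of reads assigned to no gene were left out. CPM here is without the added 0.5 read.

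The main fit was limma 3.58.1 (R 4.3.3) on the deposited log2 values, with 1 mean per population over 12 libraries, a variance trend, two-sided tests and Benjamini-Hochberg adjustment over 14560 genes. limma was also run on the recovered reads with voom weights. Other alternatives were a replicate block, the 2 populations alone, no variance trend, robust variances, 5 reads added, quantile normalization, scaling by gene read totals, a filter of at least 1 CPM in 3 libraries, and leaving out each library. The fit was tested on simulated data.

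The comparison, its markers and the 27 gene lists were chosen with earlier results of these data known. Lists are described by their counts and medians, with no set test. Of 549 listed symbols, 478 were measured. Named genes were the 15 largest rises and falls among called genes with no overlap between libraries and at least 10 CPM in the higher population, the markers, for each list up to 6 called members of smallest p and up to 3 uncalled ones of highest level, the 10 of highest level in each population and those of largest range within a population. Some further list members were named after their values were seen, and some genes that the rule picks are not reported here. Positions are from GENCODE M21 on GRCm38, matched by gene identifier, and promoters from RefSeq on GRCm38.p6, matched by symbol.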

Additional observations from a re-analysis of the deposited data

How the results depend on the processing

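Of 15 alternative settings, all gave total counts within 1.5 times those reported. The number of called genes was 3185 as reported, 3332 with voom weights and 2163 to 3021 with 1 library left out, the lowest without Pre-BMP replicate 3. Higher calls ranged from 1199 to 1800, lower calls from 964 to 1221 and calls of at least 1 on the log2 scale from 1422 to 1919 with 1 library left out. Quantile normalization shifted the median of all genes by -0.13 on the log2 scale, and 50.4% of its calls were higher, against 55.7% as reported and 61.9% with scaling by gene read totals. Same-numbered libraries did not deviate together (correlations of 0.0583, -0.113 and -0.0243 over 8204 genes), so the replicate numbers were not taken to pair the samples. With the replicate number as a block, 2944 genes were called. Of the 151 genes named as called, 141 were called in every setting that fitted them. The rule for named genes favours large changes and small p in the main fit, so this share does not describe all called genes. Named genes whose sign turned were all uncalled ones. With quantile normalization, Plac8 stood at 0.15, Nkg7 at 0.046 and Ifngr1 at 0.063. With scaling by gene read totals, Ifngr1 stood at 0.026 and Mitf at 0.0073, and with 5 reads added Il7r stood at -0.0048. With 1 library left out, Mitf ranged from -0.71 to 0.35, Ifngr1 from -0.14 to 0.078, Stat6 from -0.044 to 0.28, Syk from -0.083 to 0.21, Actb from -0.057 to 0.052, Cdk1 from -0.0036 to 0.14, Cdk6 from -0.0053 to 0.16 and Eef1a1 from -0.0064 to 0.10. The cause was not tested. With 3 libraries in each population, an exact permutation test of a single gene cannot give a p below 0.1, so calls rest on the spread pooled over genes and populations. Data were also simulated at this size and depth for the 14560 genes of this comparison. The simulation gave every gene the same dispersion, which was set in advance and not estimated from these libraries. It placed changes only in genes of at least 1 CPM, with 100 genes changed at each fold. There, 87% of 2-fold and 100% of 4-fold changes were called. These shares hold for that setting and are not the power of the comparison itself. Smaller changes may be missed, and so may larger ones in genes that vary more between libraries or have lower levels.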

Other observations

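Some genes outside the lists were among those of highest level and differed between the populations. Ly6e stood at 1379, 1339.7 and 1190.4 CPM in DN-GMPs and 2384, 2244 and 2310.3 CPM in Pre-BMPs, a difference of 0.83 (SE 0.0605, limma adjusted p = 3.12e-06). Serinc3 stood at 1183, 1358 and 1209 CPM in DN-GMPs and 2030.0, 2052 and 2257 CPM in Pre-BMPs, a difference of 0.76 (SE 0.0587, limma adjusted p = 5.32e-06).

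Other genes differed most among libraries of the same population. In Pre-BMPs, with a mean of at least 10 CPM, these included Ngp, a neutrophil granule gene, at 68.9, 9.28 and 6.59 CPM. In DN-GMPs they included Nsmf at 10.4, 22.1 and 0 CPM and Sh3tc1 at 0.191, 23 and 8.02 CPM. None of these 3 genes was called between the populations, although Ngp was with 5 reads added, with a replicate block and without DN-GMP replicate 1 or 2, and the library that stood apart differed from gene to gene.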
